A study of Mus musculus with 6 samples.

Results

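The hypoxia-inducible factor (HIF) pathway was followed through 10 genes in Müllerian ducts of mouse embryos that carried or lacked Cre in the Amhr2 locus. The genes were the alpha subunits Hif1a and Epas1, the prolyl hydroxylases Egln1, Egln2 and Egln3, the ubiquitin ligase subunit Vhl, and 4 non-glycolytic target genes, Bnip3, Adm, Ndrg1 and Ankrd37. They were taken by gene symbol from the platform's probe table, and each had 1 row among the 22206 transcript clusters tested. Total RNA of each duct was hybridised to an Affymetrix array, and the authors deposited log2 signals.

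The 3 mutant embryos were Lats1f/f,Lats2f/f,Amhr2cre/+ and the 3 control embryos were Lats1f/f,Lats2f/f, all collected at E17.5. Both groups therefore carried floxed alleles of Lats1 and Lats2, the kinases that restrain YAP and TAZ in the Hippo pathway, and no treatment was given in the labels. Cre sat in the Amhr2 locus, which is active in the mesenchyme of the duct, so the alleles of other cell types were not its target. An effect of Cre or of the lost Amhr2 copy cannot be told apart from that of the floxed alleles, because none of the 3 controls carried Cre. The labels give neither strain nor sex.

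In cells with enough oxygen, prolyl hydroxylases modify the HIF alpha subunits, and the VHL protein then marks them for degradation. When hydroxylation stops, the alpha subunit persists, pairs with ARNT and binds a short core sequence in its target genes. Egln1 and Egln3 are themselves targets, a feedback on the pathway. Control of the alpha subunits is largely on the protein, which these arrays did not measure.

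The median log2 signal of an array was 6.87 to 6.95, and that of its 23 background probes was 5.35 to 5.88. Lats1 was at 11.12, 11.77 and 11.60 in mutant ducts and 12.51, 12.13 and 12.20 in control ducts, with a limma adjusted p of 0.0958. Lats2 overlapped between groups, with a log2 fold change of 0.22 ± 0.21 (SE). The position of the probes relative to the deleted exons was not analysed here, so neither value is a check of recombination. Amhr2, the defining mesenchyme marker of the duct, was 13.3-fold lower in mutants, which have Cre in that locus. The part of the Cre allele in that fall was not tested. Of the 9 epithelial markers, Lhx1 was below background on every array and all others were above background on every array. Control 3 stood apart from the other controls on the second principal component. Its urothelial markers averaged 10.91 over 7 genes, against 6.38 and 6.70 in control 1 and control 2, and its smooth muscle markers 11.68 over 10 genes, against 8.77 and 9.83. Counts of calls are therefore given with and without that array.

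The deposited signals of Egln3, Adm, Ndrg1, Bnip3 and Egln1 were higher in every mutant array than in any control array. These 5 members passed an adjusted p of 0.05 as higher in mutants, in a limma fit over all transcript clusters with Benjamini-Hochberg adjustment, and are described here as having risen. By the same rule 2.59% of all transcript clusters were higher. No member was lower at an adjusted p of 0.05, where 0.666% of all transcript clusters were lower. None was lower at an unadjusted p of 0.05 either, a level that 3398 transcript clusters passed in either direction. The other 5 members, Hif1a, Epas1, Egln2, Vhl and Ankrd37, overlapped between groups. Over all transcript clusters the groups failed to overlap in 10.9% with mutants above and 10.2% with mutants below. All 10 members were above the background level of every array. In whole-duct RNA, fewer cells of a type and less RNA per cell cannot be told apart.

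**Figure D1:**
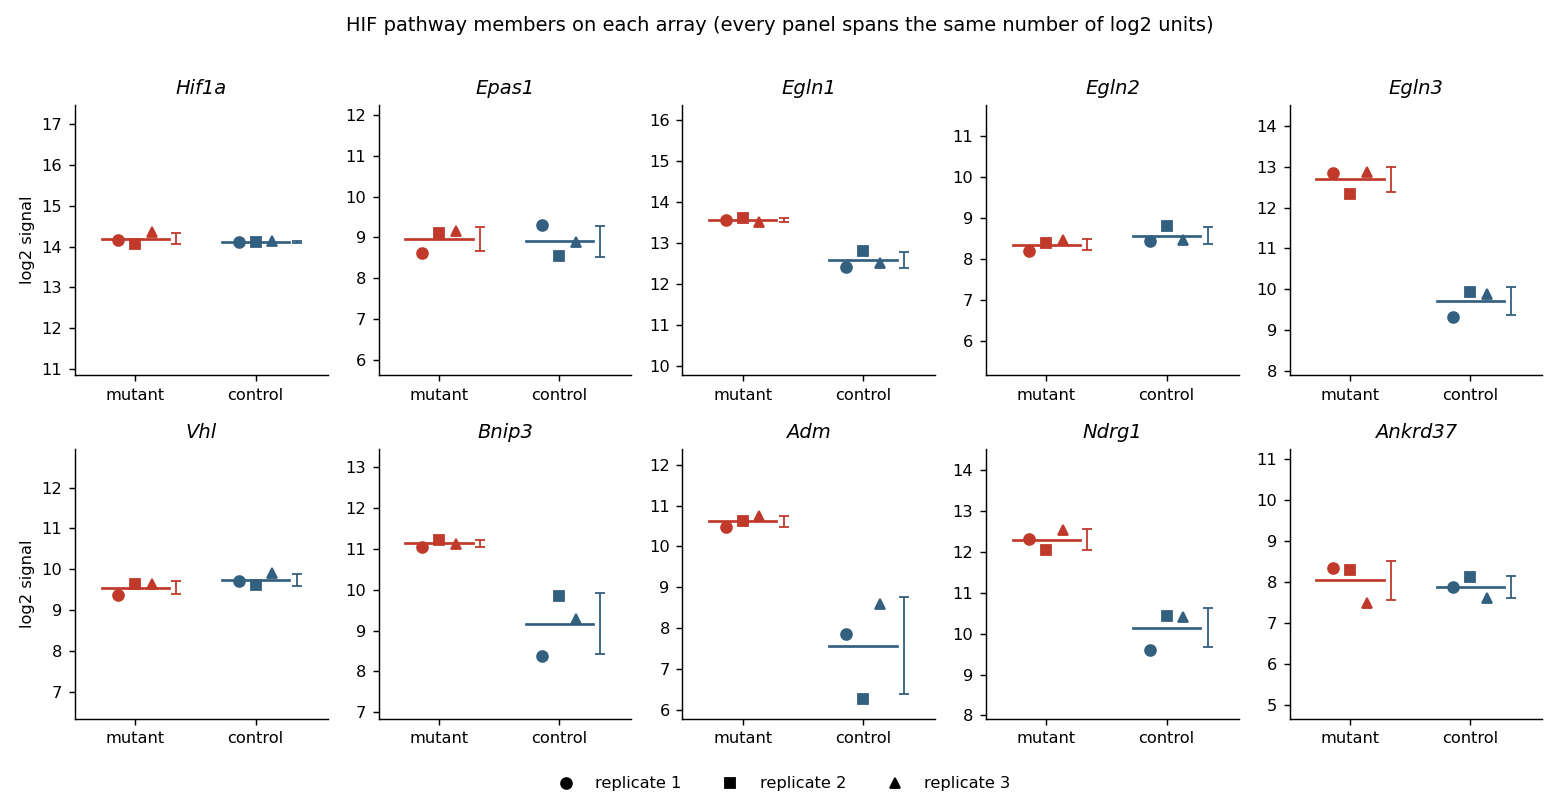
Log2 signal of each of the 10 members on the 3 mutant and 3 control arrays. Points are arrays, horizontal lines are group means, and bars beside them are 1 SD. The mutant points lie above all control points for Egln1, Egln3, Bnip3, Adm and Ndrg1, and the groups overlap for the other 5 genes.

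Neither alpha subunit differed detectably in mRNA. Hif1a, the broadly expressed alpha subunit, had log2 signals of 14.17, 14.07 and 14.34 in the mutant arrays, against 14.10, 14.11 and 14.14 in the control arrays. The values of mutant 2 lay below all controls and those of mutant 1 and mutant 3 above them, so the groups overlapped. Its log2 fold change was 0.08 ± 0.16 (SE, n = 3 per group; limma adjusted p = 0.875), and the 95% interval allowed 0.824 to 1.35 times the control signal. Epas1 encodes HIF-2 alpha, which is prominent in endothelium. It was measured at 8.62, 9.10 and 9.16 in mutants and 9.30, 8.54 and 8.89 in controls. Both the lowest and the highest of these 6 values were in controls. The log2 fold change of Epas1 was 0.05 ± 0.24 (limma adjusted p = 0.952), with an interval of 0.715 to 1.49 times the control signal. Endothelial markers had mean signals of 10.06 to 10.34 on mutant arrays and 10.15 to 10.32 on control arrays over 11 genes.

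Of the 3 prolyl hydroxylases, Egln3 and Egln1 rose and Egln2 was not called. Egln3, an inducible member of the family, stood at 12.84, 12.34 and 12.88 in the mutant arrays, against 9.33, 9.93 and 9.89 in the control arrays. Its lowest mutant value was 2.40 above its highest control value. The gene rose 7.83-fold, a log2 fold change of 2.97 ± 0.23 (SE; limma adjusted p = 0.000208), and was number 29 of all 22206 transcript clusters by log2 fold change. Egln1 encodes PHD2, the main oxygen sensor for HIF in most tissues. Its signals were 13.57, 13.61 and 13.51 in mutants and 12.42, 12.80 and 12.51 in controls. The mutant arrays lay within 0.1 of each other and were 0.71 or more above every control. Egln1 rose 1.98-fold, with a log2 fold change of 0.99 ± 0.17 (limma adjusted p = 0.0128). This call was lost without mutant 1 (adjusted p = 0.0586) or control 1 (adjusted p = 0.0657). Egln2, which encodes PHD1, gave 8.21, 8.40 and 8.46 in mutants and 8.44, 8.82 and 8.47 in controls. Its mutant 1 value was the lowest and its control 2 value the highest, with the other 4 close together. The log2 fold change was -0.22 ± 0.18 (limma adjusted p = 0.626), and its interval ran from -0.62 to 0.18.

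Whether the hydroxylases changed unequally was examined within arrays, from the log2 signal of a gene minus that of its paralog. Such a difference between probe sets has no meaning as a level, but its shift between groups shows whether the genes changed unequally. The difference of Egln3 and Egln1 was -0.88 ± 0.34 in mutant and -2.86 ± 0.23 in control ducts (SD, n = 3 each), a shift of 1.98. For Egln3 and Egln2 it was 4.33 ± 0.36 in mutant and 1.14 ± 0.26 in control ducts, a shift of 3.19. For Egln2 and Egln1 it was -5.21 ± 0.16 in mutant and -4.01 ± 0.03 in control ducts, a shift of -1.20. In each of these 3 pairs the groups did not overlap. The 3 are not separate results, since on each array the third difference is the first minus the second. The exact two-sided permutation p was 0.1 for each, the smallest that 3 against 3 arrays can give, and 0.133 after Benjamini-Hochberg adjustment over the 4 pairs compared. The fourth pair, Epas1 and Hif1a, overlapped at -5.24 ± 0.29 in mutant and -5.21 ± 0.39 in control ducts (exact permutation p = 1).

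**Figure D2:**
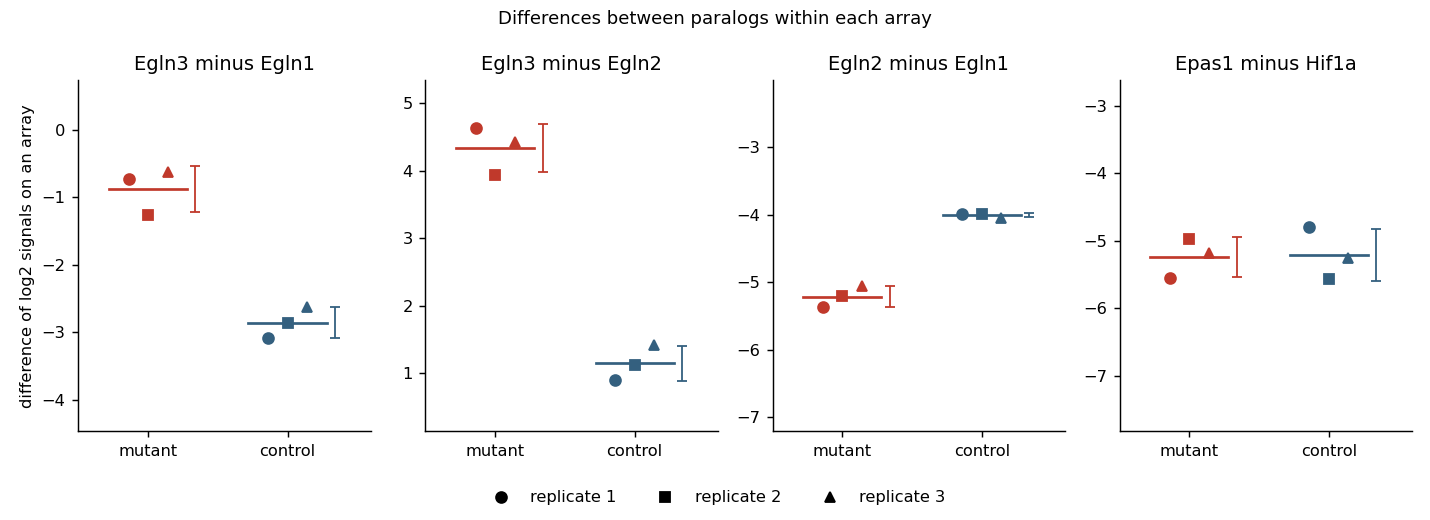
Difference of the log2 signals of 2 paralogs on each array, by genotype. Points are arrays, lines are means and bars are 1 SD. The Egln3 minus Egln1 values lie between -1.27 and -0.64 in mutants and between -3.09 and -2.63 in controls, whereas Epas1 minus Hif1a overlaps.

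Vhl, the subunit that recognises hydroxylated HIF, overlapped between groups. It had 9.38, 9.65 and 9.63 in the mutant arrays and 9.71, 9.62 and 9.91 in the control arrays. Mutant 1 was the lowest and control 3 the highest, and the rest overlapped. The log2 fold change was -0.19 ± 0.17 (limma adjusted p = 0.666), with an interval of 0.674 to 1.14 times the control signal.

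Among the targets, Adm encodes adrenomedullin, a secreted vasodilator peptide. Its signals were 10.48, 10.62 and 10.73 in mutant ducts, against 7.86, 6.26 and 8.59 in control ducts. The mutants lay close together, whereas the controls spread widely, with control 2 lowest. Adm averaged 10.61 ± 0.13 in mutant and 7.57 ± 1.19 in control ducts (SD, n = 3 each), a rise of 8.23-fold with an interval of 3.90 to 17.4-fold (limma adjusted p = 0.00905). That interval takes equal spread in both groups, and a plain unequal-variance test gave Adm an adjusted p of 0.461. Without control 2 its log2 fold change was 2.39 (adjusted p = 0.00367), and without control 3 it was 3.55 ± 0.39 (adjusted p = 0.00196), so the size depends on which control is included. Its order with Egln3 also turned, since without control 2 Egln3 had a log2 fold change of 3.08.

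Ndrg1 encodes a cytoplasmic protein induced by hypoxia and other stresses. It was at 12.31, 12.04 and 12.54 in mutants and 9.59, 10.42 and 10.41 in controls. Control 1 was lower than the other controls, and the nearest mutant and control arrays were 1.62 apart. Ndrg1 rose 4.45-fold, with a log2 fold change of 2.16 ± 0.25 (limma adjusted p = 0.00182).

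Bnip3, a mitochondrial protein of the BCL2 family that takes part in mitophagy, measured 11.05, 11.21 and 11.12 in mutant and 8.37, 9.84 and 9.29 in control arrays. The mutant values were nearly equal, and the controls spread over more than 1 log2 unit with control 1 lowest. The rise was 3.9-fold (log2 fold change 1.96 ± 0.32, limma adjusted p = 0.0108). Leaving out 1 array gave log2 fold changes from 1.56 to 2.30 and adjusted p from 0.00636 to 0.0458.

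Ankrd37, a small ankyrin repeat protein described as a HIF target in human cells, was the 1 target of the 4 that was not called. It read 8.35, 8.30 and 7.49 in mutants and 7.89, 8.14 and 7.61 in controls. Mutant 3 had the lowest value of all and mutant 1 the highest. Its log2 fold change was 0.16 ± 0.26 (limma adjusted p = 0.826), and the interval allowed 0.752 to 1.67 times the control signal.

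Without control 3 the same 5 members were called and none was lower, with 697 of all transcript clusters called in either direction. Egln3 then had a log2 fold change of 3.05 ± 0.26, Ndrg1 of 2.29 ± 0.28, Bnip3 of 2.03 ± 0.37 and Egln1 of 0.95 ± 0.20 (limma adjusted p = 0.000535, 0.00282, 0.0206 and 0.0375). In all 5 genes that rose the SD was larger among controls than among mutants, as it was in 56.7% of the 575 transcript clusters called higher. With a plain unequal-variance test the adjusted p of these 5 genes ran from 0.185 for Egln3 to 0.461 for Adm.

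**Figure D3:**
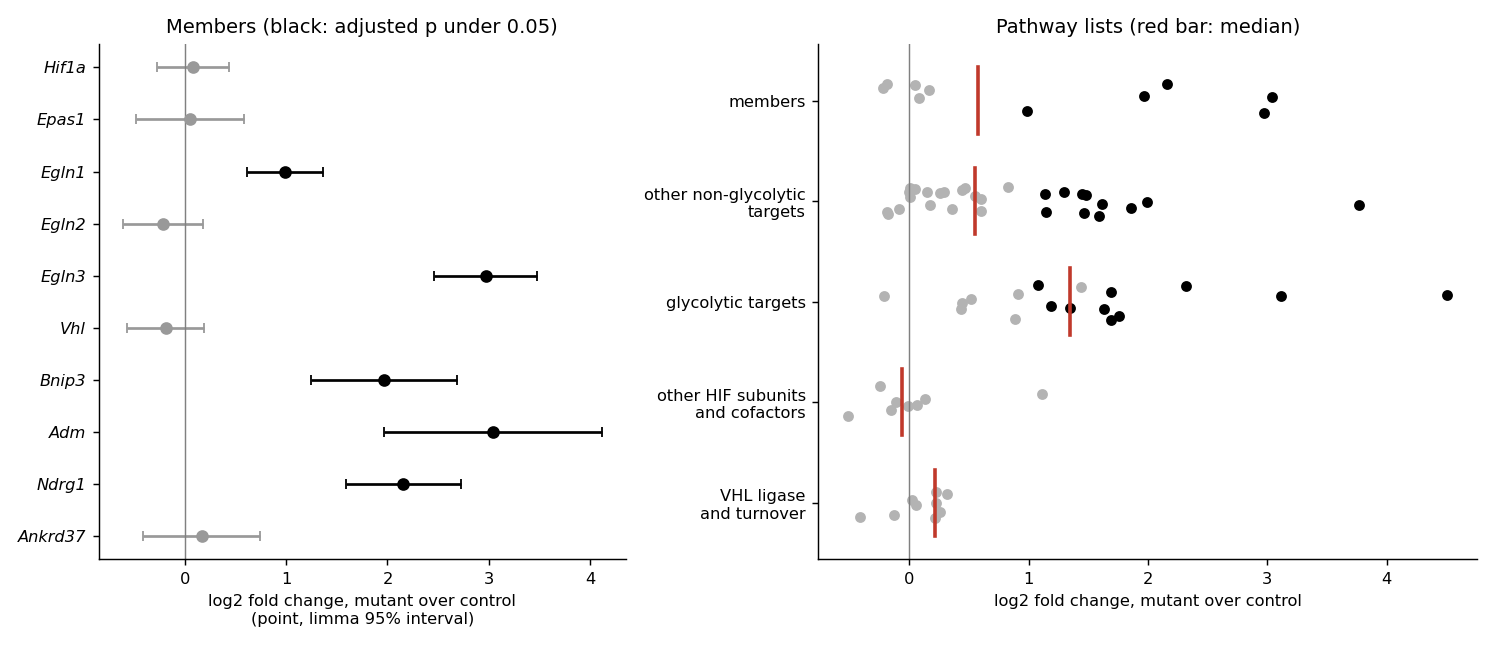
Log2 fold change of mutant over control. On the left, points are the 10 members and bars limma 95% intervals, with black for an adjusted p under 0.05. On the right, each point is a gene of a pathway list, black where it passed, and red bars are list medians. Members that rose lie between 0.99 and 3.04, while the subunits, Egln2, Vhl and Ankrd37 straddle 0.

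Promoter sequences are shown for genes that rose (Egln1, Egln3, Bnip3 and Adm) beside a hydroxylase and a target that were not called (Egln2 and Ankrd37), since HIF targets are recognised through a short DNA core. Each is 300 bases of RefSeq sequence on GRCm38.p6, from 250 bases before to 50 bases after an annotated start, read 5′ to 3′ on the strand of the gene. Capitals mark the core, ACGTG or GCGTG, on either strand. Where ACGTG matched on both strands 1 base apart, the letters are CACGTG, the E-box that other factors also bind.

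Egln1, chr8:124949205-124949504, minus strand: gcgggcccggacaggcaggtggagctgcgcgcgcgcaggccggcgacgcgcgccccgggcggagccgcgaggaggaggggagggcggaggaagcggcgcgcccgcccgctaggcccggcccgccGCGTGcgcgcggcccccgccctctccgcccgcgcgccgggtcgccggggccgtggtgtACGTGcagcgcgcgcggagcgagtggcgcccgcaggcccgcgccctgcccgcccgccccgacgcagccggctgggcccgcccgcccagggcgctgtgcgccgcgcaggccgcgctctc

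Egln3, chr12:54203825-54204124, minus strand: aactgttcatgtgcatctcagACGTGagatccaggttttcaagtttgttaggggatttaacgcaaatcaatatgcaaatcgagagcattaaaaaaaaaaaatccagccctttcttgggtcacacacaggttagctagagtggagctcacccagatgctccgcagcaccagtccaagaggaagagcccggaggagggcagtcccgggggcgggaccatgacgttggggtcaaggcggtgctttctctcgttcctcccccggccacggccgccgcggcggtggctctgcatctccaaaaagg

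Bnip3, chr7:138909457-138909756, minus strand: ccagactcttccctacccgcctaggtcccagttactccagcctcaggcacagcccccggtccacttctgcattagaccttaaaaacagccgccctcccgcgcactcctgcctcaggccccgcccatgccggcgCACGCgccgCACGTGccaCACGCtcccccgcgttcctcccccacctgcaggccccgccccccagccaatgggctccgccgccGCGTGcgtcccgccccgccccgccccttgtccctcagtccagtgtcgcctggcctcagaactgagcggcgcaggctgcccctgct

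Adm, chr7:110627407-110627706, plus strand: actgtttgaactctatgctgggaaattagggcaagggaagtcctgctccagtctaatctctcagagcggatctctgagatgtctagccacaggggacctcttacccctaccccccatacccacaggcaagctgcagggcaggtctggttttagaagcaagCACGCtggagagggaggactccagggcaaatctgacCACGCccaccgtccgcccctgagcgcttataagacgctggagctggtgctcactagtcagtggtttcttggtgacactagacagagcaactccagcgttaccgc

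Egln2, chr7:27166753-27167052, minus strand: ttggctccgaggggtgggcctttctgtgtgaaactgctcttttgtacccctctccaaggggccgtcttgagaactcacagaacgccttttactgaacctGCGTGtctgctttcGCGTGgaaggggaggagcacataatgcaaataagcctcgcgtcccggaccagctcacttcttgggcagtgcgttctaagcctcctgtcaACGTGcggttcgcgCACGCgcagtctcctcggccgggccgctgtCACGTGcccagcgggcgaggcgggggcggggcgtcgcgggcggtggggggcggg

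Ankrd37, chr8:45999801-46000100, minus strand: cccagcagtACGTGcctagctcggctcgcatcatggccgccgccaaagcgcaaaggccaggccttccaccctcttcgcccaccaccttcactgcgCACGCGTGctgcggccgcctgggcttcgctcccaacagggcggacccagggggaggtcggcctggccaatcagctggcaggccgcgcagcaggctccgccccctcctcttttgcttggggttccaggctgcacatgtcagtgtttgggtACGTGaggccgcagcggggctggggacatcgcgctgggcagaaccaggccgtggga

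Of the 10 members, 8 matched this table, and Epas1 and Ndrg1 had no entry. The core occurred in 7 of these 8 genes, which have 9 windows. Over all 32851 promoter windows in the table it occurred in 43.8%, a share of windows and not of genes. It occurred in 56.7% of the 561 windows of genes called higher. That difference was not tested, and the G and C content of those windows was not compared. Whether the number of matches goes with the response was not tested. Egln3, with the smallest p of the members, had 1 match, at base 22 of the window. Egln2 had 6 at its first start and 1 at its second. Bnip3 had 5 matches, of which an overlapping pair formed CACGTG, and Adm had 2, both on the opposite strand. Egln1 had 2 in a window that was 86.0% G and C, against a median of 52.7% over all windows. Every member window except the second start of Egln2, at 49.3%, was above that median. Ankrd37 had 4, of which a pair on opposite strands overlapped, Hif1a had 3, and the Vhl window had none. The TEAD core GGAATG, searched on both strands because TEAD factors carry YAP and TAZ to DNA, was found only at the second start of Egln2 among these windows, and in 14.7% of all windows. A match here is a run of letters and not a measured site.

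**Figure D4:**
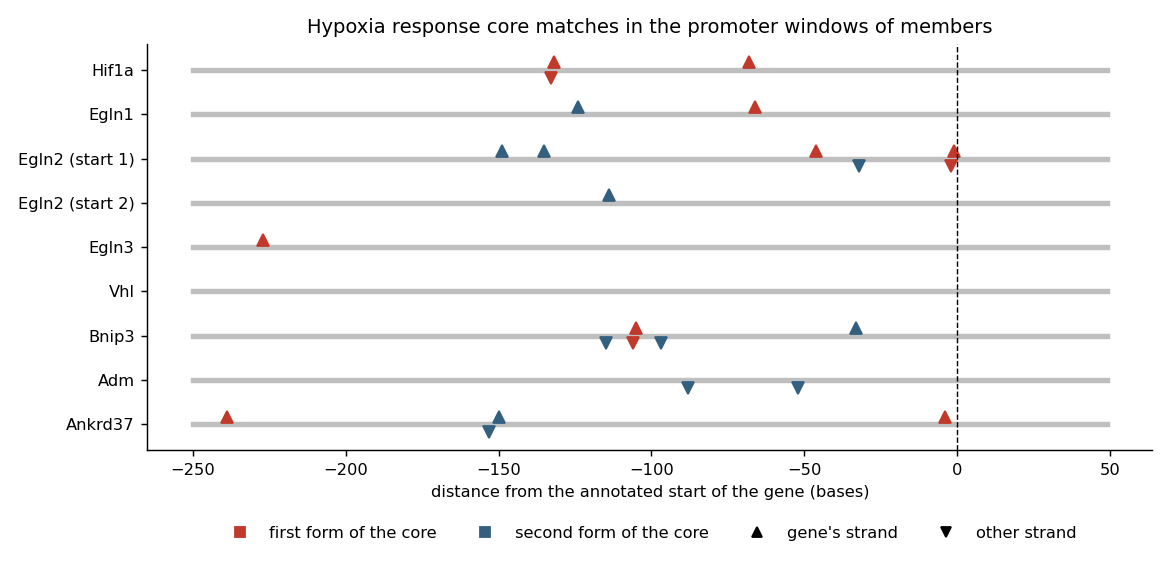
Positions of the hypoxia response core in the promoter windows of the 8 matched members (Egln2 has 2 starts), by distance from the annotated start in bases. Upward triangles are matches on the gene's strand and downward ones on the opposite strand, in red for the form that begins with A and blue for the form that begins with G. The genes that rose have 2 (Egln1), 1 (Egln3), 5 (Bnip3) and 2 (Adm) matches. Those not called have 3 (Hif1a), 6 and 1 (Egln2), 4 (Ankrd37) and 0 (Vhl).

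The rest of the pathway was read from 4 further lists. Of 8 other subunits, dimer partners and cofactors, none passed the adjusted threshold, and at an unadjusted p of 0.05 there was 1 higher and 1 lower. Over all 22206 transcript clusters, 3398 passed that unadjusted level in either direction. The median log2 fold change of the 8 genes was -0.06, beside -0.01 over all transcript clusters. Cited2, which competes with HIF for the coactivators p300 and CBP, had 15.51, 15.52 and 15.47 in mutants and 14.35, 13.77 and 15.03 in controls. Every mutant value was above every control, but control 3 came within 0.44 of the lowest. Its log2 fold change was 1.11 ± 0.28 (limma adjusted p = 0.0747), and it was the 1 cofactor called when control 3 was left out. Hif3a, a further alpha subunit, was at 11.30, 11.74 and 11.81 in mutants and 11.93, 12.31 and 12.16 in controls (log2 fold change -0.51 ± 0.20, adjusted p = 0.247). Hif1an, the asparaginyl hydroxylase FIH, had a log2 fold change of -0.15 ± 0.18, and Cited4 was below background on every array.

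None of the 9 genes for other VHL ligase subunits or for turnover of the hydroxylases and HIF passed the adjusted threshold or had an unadjusted p under 0.05. Their median log2 fold change was 0.21, and none was called without control 3. The elongins Eloc and Elob, which pair with VHL, had log2 fold changes of 0.26 ± 0.17 and 0.21 ± 0.16. The ubiquitin ligases Siah1a and Siah2, which target prolyl hydroxylases, had -0.42 ± 0.27 and 0.22 ± 0.16.

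Of 29 other non-glycolytic targets measured, 11 rose and none fell, beside 2.59% of all transcript clusters called higher and 0.666% lower. None of the 29 was lower at an unadjusted p of 0.05 either, and their median log2 fold change was 0.55. Bhlhe40, a transcriptional repressor that also acts in the clock, was at 14.74, 14.78 and 14.47 in mutants and 10.83, 10.67 and 11.19 in controls. It rose by 3.77 ± 0.19 on the log2 scale (SE; limma adjusted p = 3.19e-05). Ero1a, the oxidase that forms disulfides in the endoplasmic reticulum, gave 11.59, 11.28 and 11.84 in mutants and 9.26, 9.85 and 9.64 in controls, a rise of 1.99 ± 0.21 (adjusted p = 0.00122). Both had groups that were far apart. Higd1a, a mitochondrial protein, rose by 1.59 ± 0.20, and Lox, lysyl oxidase, by 1.30 ± 0.17 (adjusted p = 0.00273 and 0.00357). The remaining 7 that rose, named after their values were seen, were Car12, Plod2, P4ha1, P4ha2, Stc2, Vegfa and Edn1, with log2 fold changes between 1.14 and 1.86. The Edn1 call was lost whenever any 1 array was left out, and those of Vegfa, Car12 and Plod2 without mutant 1 or control 1 among others. Without mutant 1 the count was 6, and without mutant 3 or control 1 it was 7. Over all transcript clusters those fits called 360, 501 and 384, in the same order. P4ha2 lost its call without mutant 1 or mutant 3. Without control 3 the count was 10, with 697 called over all transcript clusters. At an unadjusted p of 0.05, which 3398 of all 22206 transcript clusters passed in either direction, 16 of the 29 were higher. The 5 of these that missed the adjusted threshold had log2 fold changes of 0.83 ± 0.23 for Fam162a, 0.60 ± 0.16 for Kdm3a, 0.60 ± 0.18 for Wsb1, 0.55 ± 0.22 for Car9 and 0.44 ± 0.19 for Plod1. Further targets were nearer to 0, such as Ddit4 at 0.25 ± 0.22, Bnip3l at 0.29 ± 0.15 and Mxi1 at 0.00 ± 0.15. All of these were also named after their values were seen.

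Among 17 glycolytic targets measured, 10 rose and none fell, beside 2.59% of all transcript clusters called higher and 0.666% lower. None of the 17 was lower at an unadjusted p of 0.05 either, and their median log2 fold change was 1.35. At an unadjusted p of 0.05, which 3398 of all 22206 transcript clusters passed in either direction, 16 of the 17 were higher. On the log2 scale the glucose transporter Slc2a3 rose by 4.51 ± 0.21 and Slc2a1 by 3.12 ± 0.23, hexokinase Hk2 by 1.69 ± 0.23 and the lactate exporter Slc16a3 by 2.32 ± 0.34 (limma adjusted p between 1.73e-05 and 0.00673). Of the 10, 6 lost their call in at least 3 of the 6 fits that left out 1 array. The count was 4 without mutant 1, 5 without mutant 2 and 6 without mutant 3, and it was 11 without control 3. Over all transcript clusters those fits called 360, 505, 501 and 697, in the same order.

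The genes whose array pattern was nearest to each member that rose were taken by the root mean square difference of mean-centred log2 signals over the 6 arrays, which share the split by genotype. Nearest to Bnip3 were Pgk1, Ak4 and Slc16a3, with differences of 0.145, 0.164 and 0.196. Pgk1 had 15.39, 15.51 and 15.40 in mutants and 13.01, 14.31 and 13.89 in controls, with control 1 low as for Bnip3. Nearest to Ndrg1 were Ero1a at 0.155, Depdc7 at 0.219 and Fst at 0.219. Those nearest to Egln3 were Serpinb6b at 0.218, Anxa3 at 0.269 and Slc2a1 at 0.286. For Egln1 they were Slc22a23 at 0.0448, Prelid2 at 0.0662 and Pdlim2 at 0.0895. Adm had no close match, with Adamts5, Pim1 and Sema3e at 0.511, 0.527 and 0.530.

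Macrophage markers, and some genes chosen as possible signs of handling, moved with the same groups. Handling itself was not measured. Macrophage and leukocyte markers averaged 10.01 to 10.34 on mutant arrays and 8.95 to 9.03 on control arrays over 11 genes. Of the 11, 7 rose, beside 2.59% of all transcript clusters. On the log2 scale C1qc rose by 1.63 ± 0.16, C1qb by 1.52 ± 0.16, Laptm5 by 1.52 ± 0.17 and C1qa by 1.42 ± 0.18. Immediate early and heat shock genes averaged 9.35 to 9.48 on mutant arrays and 8.18 to 8.64 on control arrays over 14 genes. Of these, 5 rose and 9 were not called, beside 2.59% of all transcript clusters called higher. Those that rose included Ier3 by 3.12 ± 0.27, Fos by 1.71 ± 0.24, Hspa1a by 2.33 ± 0.34 and Hspa1b by 2.57 ± 0.46. At an unadjusted p of 0.05, 10 macrophage and 8 early or heat shock genes were higher and none of either list was lower. Over all 22206 transcript clusters, 3398 passed that level in either direction. Without control 3, 7 members of each of the 2 lists rose, with 697 called over all transcript clusters in either direction. The 10 HIF pathway members together averaged 10.90 to 10.99 on mutant and 9.70 to 9.97 on control arrays. The part of either list in the rise of the 5 members was not tested.

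The remaining marker lists had few calls at the adjusted threshold, which 2.59% of all transcript clusters passed as higher and 0.666% as lower. Of 11 endothelial markers Kdr rose by 1.10 ± 0.16 and Flt1 by 1.16 ± 0.22, with a list median of -0.23, and both encode receptors of VEGF. Without control 3, a fit that called 697 of all transcript clusters, 2 endothelial markers were called higher. Smooth muscle markers averaged 9.78 to 10.23 in mutants and 8.77 to 11.68 in controls, where Tagln rose by 2.92 ± 0.30 and Synpo2 fell by 2.64 ± 0.33. The smooth muscle list had 1 higher, 1 lower and a median log2 fold change of -0.23 with all arrays, and 3 higher, 1 lower and a median of 0.22 without control 3. Urothelial markers averaged 6.66 to 6.78 in mutants and 6.38 to 10.91 in controls, and none was called or had an unadjusted p under 0.05. Their median was -1.11 with all arrays and 0.33 without control 3, where again none was called. Upk2 was at 3.52, 3.83 and 3.57 in mutants and 3.72, 4.16 and 12.21 in controls, high in control 3 and below background on the other arrays. Of 9 epithelial markers, Lhx1 was called, at a signal below background on every array, and without control 3 that call was lost and none was made. Of 8 mesenchyme markers, Amhr2 fell, the list median was -0.70, and log2 fold changes ran from -3.73 to -0.06. At an unadjusted p of 0.05, which 3398 of all 22206 transcript clusters passed in either direction, 5 of the 8 were lower and none higher. In 4 of the 8, every mutant lay below every control, beside 10.2% of all transcript clusters. The list averaged 12.03 to 12.61 in mutants and 13.13 to 13.37 in controls. Without control 3 it again had 1 called lower and none higher. Neuron and Schwann cell markers (5 measured) and erythroid markers (2 measured) had no call and none at an unadjusted p of 0.05, and no call without control 3.

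**Figure D5:**
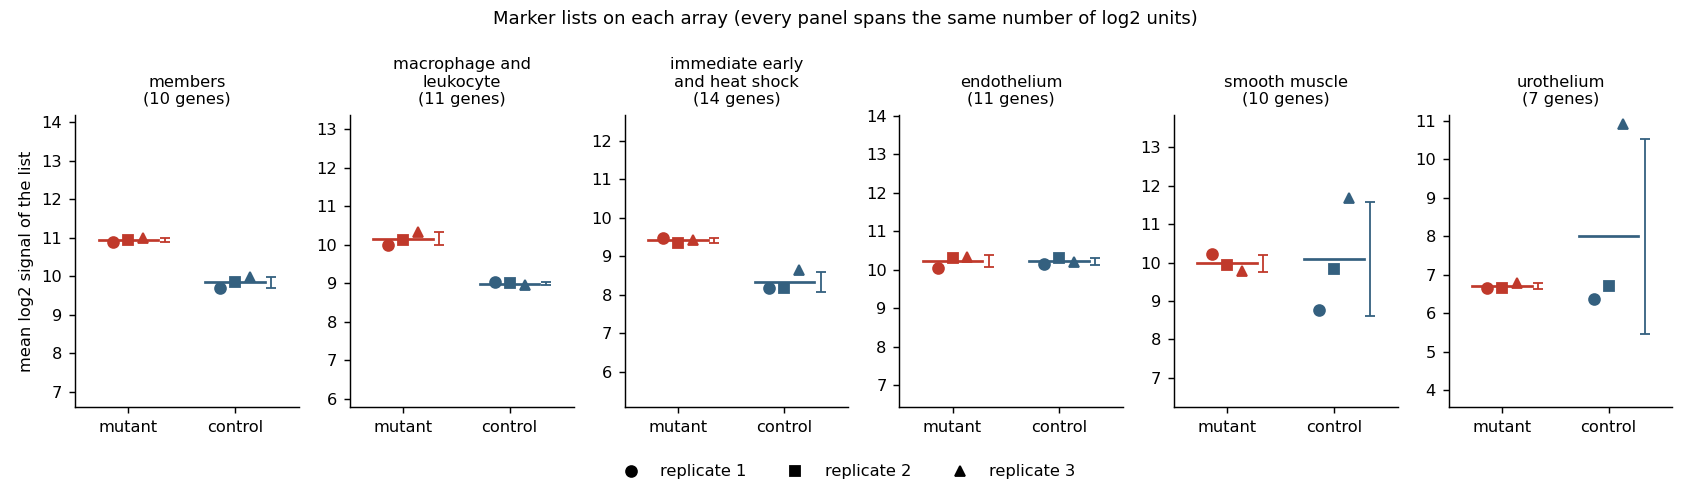
Mean log2 signal of the members and of 5 marker lists on each array. Points are arrays, lines are means and bars are 1 SD. The member, macrophage and immediate early lists are higher on every mutant array, the endothelial list overlaps, and control 3 is high for smooth muscle and urothelium.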

How the data were processed

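The authors deposited 1 table of log2 signals from Affymetrix arrays of 6 embryos. Per the submitters' processing notes, the software was Transcriptome Analysis Console 4.0. How probes were summarised and arrays normalized, and the genome build, are not stated by the labels. The log2 values were used without further normalization. Of 28846 rows, 22206 transcript clusters were tested and 6640 control rows were left out. The platform's probe table gave 1 symbol to 19572 of them. A linear model with a genotype term was fitted to each row (limma 3.58.1, functions lmFit and eBayes, R 4.3.3, two-sided), and p-values were adjusted over all tested rows by the Benjamini-Hochberg method at 0.05. Intervals are at 95%. The fit was also run on simulated rows with equal spread in both groups. That run does not cover genes whose controls spread more than the mutants, as in the members that rose. A signal under the median of an array's background probes is called below background. The members and lists were chosen with earlier results of these data known. Named are all members, up to 4 genes of smallest p in each list (2 of each direction where it moved both ways) and the 3 nearest rows of each called member. The labels do not say whether the replicate numbers pair the arrays, and the arrays were treated as unpaired. Deviations of same-numbered arrays correlated at 0.00777, 0.0419 and -0.00302, which does not settle how the embryos were grouped. Precision is limited by the 3 arrays per group. Python 3.11.15 and matplotlib 3.10.9 were used for figures.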

Additional observations from a re-analysis of the deposited data

How the results depend on the processing

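Alternatives were quantile normalization, a common array median, filters on dim rows at the 25th percentile and the median, a trended and robust prior, array weights, a replicate block, rows that have 1 symbol, an adjusted p of 0.01, a plain unequal-variance test for each row, and leaving out every array in turn. Over all transcript clusters 723 were called, 299 at a threshold of 0.01 and from 360 (without mutant 1) to 697 (without control 3) when 1 array was left out, with 384 without control 1 and 454 without control 2. The plain unequal-variance test called 0 of all rows, 0 members and 0 of either target list, with 2332 rows, 5 members, 14 other targets and 10 glycolytic targets at an unadjusted p under 0.05. With the replicate block 633 rows and the same number of members, 5, were called. At 0.01 there were 3 members, 6 other targets and 4 glycolytic targets. Leaving out 1 array gave 6 to 10 other targets, 4 to 11 glycolytic targets and 4 or 5 members, with the Egln1 call lost without mutant 1 or control 1. Of the cofactors 1 was called with the median filter, the trended prior or array weights, and 0 to 1 when an array was left out. The members called under the other settings numbered 5 each, and no called member changed direction. The cause of the differences between settings was not tested.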

Other observations

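Which control array was lowest varied between gene lists. Among the 5 members that rose, control 1 was the lowest control for 4 (Egln1, Egln3, Bnip3 and Ndrg1), and control 2 for Adm. Control 1 was also lowest for 15 of 17 glycolytic targets and 14 of 29 other targets. Over all transcript clusters it was lowest in 31.5%, and in 43.0% of those called higher in mutants. Control 1 was lowest for 8 of 10 smooth muscle, 6 of 7 urothelial, 7 of 14 immediate early and heat shock, 5 of 11 endothelial, 4 of 11 macrophage, 3 of 9 epithelial, 2 of 5 neuron and Schwann cell, 1 of 2 erythroid and 0 of 8 mesenchyme markers, and for 4 of 9 VHL ligase and turnover genes and 2 of 8 HIF partners. These counts were made after the values were seen, and their part in the differences between genotypes was not tested.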
